A study of Mus musculus with 6 samples.

Results

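The genes described here encode the 3 transforming growth factor (TGF)-β ligands (Tgfb1, Tgfb2 and Tgfb3), their receptors and co-receptors (Tgfbr1, Tgfbr2, Tgfbr3 and Eng), and 3 latent TGF-β binding proteins (Ltbp1, Ltbp2 and Ltbp3). They were taken by symbol from the array annotation, and these 10 genes, each represented by 1 probeset, stand among 19938 genes that a probeset names alone. Expression was measured in primary osteoblasts grown from long bones of 3 male wild-type C57BL6/J mice aged 8 to 12 weeks, used at passage 2 to 3 and differentiated for 14 days. Cells of each mouse, numbered 2, 4 and 5, were split into an unstimulated culture, kept for 4 h in proliferation medium without the stimulus, and a culture that received 100 ng/ml recombinant murine C5a in the same medium for 4 h. This gives 1 array per culture, 3 unstimulated and 3 C5a-stimulated, whose median log2 intensities lay between 5.89 and 5.93. All values are log2 intensities, so that a difference of 1 is a doubling, and levels of different probesets are not compared with each other.

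TGF-β is stored in bone matrix in a latent form. The ligand is made as a precursor whose propeptide stays wrapped around the mature dimer, and latent TGF-β binding proteins tether this complex to the matrix until integrins, proteases or acid release it. The free ligand binds the type II receptor (Tgfbr2), which recruits and phosphorylates the type I receptor (Tgfbr1), and this kinase passes the signal to SMAD2 and SMAD3. Betaglycan (Tgfbr3) and endoglin (Eng) are co-receptors without kinase activity. In bone, TGF-β set free during resorption is known to attract osteoblast precursors and couple resorption to formation.

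Upstream sequences of 8 of the 10 genes, all but Tgfb3 and Tgfbr3, were taken from the RefSeq annotation of GRCm38.p6. Sequences of 4 genes are shown because their transcripts differed with C5a in opposite directions in all 3 mice, Tgfb1, Tgfb2 and Tgfbr1 being higher and Tgfbr2 lower, as described after them. Each is the stretch of 250 bases before the transcription start, written 5′ to 3′ on the strand of the gene. Capitals mark GGGCGG (SP1 box), GCGNGGGCG (EGR site) and the core promoter element TATAAA, called TATA box here, on either strand, where SP1 boxes and EGR sites can overlap.
Tgfb1, chr7:25686752-25687001, plus strand: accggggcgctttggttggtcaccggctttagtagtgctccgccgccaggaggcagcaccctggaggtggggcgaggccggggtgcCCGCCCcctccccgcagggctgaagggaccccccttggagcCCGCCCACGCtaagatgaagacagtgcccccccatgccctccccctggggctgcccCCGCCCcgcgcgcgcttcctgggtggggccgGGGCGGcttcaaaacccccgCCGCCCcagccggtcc
Tgfbr1, chr4:47352972-47353221, plus strand: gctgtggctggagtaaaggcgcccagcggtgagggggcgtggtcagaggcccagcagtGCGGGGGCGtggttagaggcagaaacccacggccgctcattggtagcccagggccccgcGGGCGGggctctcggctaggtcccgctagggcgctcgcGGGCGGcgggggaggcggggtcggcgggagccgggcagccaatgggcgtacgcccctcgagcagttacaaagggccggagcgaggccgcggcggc
Tgfb2, chr1:186705990-186706239, minus strand: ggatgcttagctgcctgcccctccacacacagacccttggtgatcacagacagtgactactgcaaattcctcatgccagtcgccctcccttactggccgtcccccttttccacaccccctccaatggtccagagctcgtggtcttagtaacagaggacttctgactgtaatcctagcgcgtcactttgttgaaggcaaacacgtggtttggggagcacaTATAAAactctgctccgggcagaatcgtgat
Tgfbr2, chr9:116175364-116175613, minus strand: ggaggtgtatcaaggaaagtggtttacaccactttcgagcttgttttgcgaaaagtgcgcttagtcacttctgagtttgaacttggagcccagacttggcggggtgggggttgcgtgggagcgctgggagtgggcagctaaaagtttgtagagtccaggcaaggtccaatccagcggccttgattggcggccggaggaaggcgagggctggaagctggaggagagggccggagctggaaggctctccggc

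The start sites of Tgfb1 and Tgfbr1 are alike in base composition. Their GC contents of 75.2% and 74.8% stand at the 96.4th and 96.1st percentiles of 32851 promoters, and they hold 5 and 2 SP1 boxes and 1 EGR site each. Over the 10 annotated start sites of the 8 genes, 3 held an SP1 box, against 32.7% of all promoters, and 2 an EGR site, against 4.7%. Tgfb2 has neither motif, a GC content of 53.6% and a TATA box that begins 31 bases before the start, a motif found in 12.4% of all promoters. The window of Tgfbr2 holds none of the marked motifs and has a GC content of 58.4%. The AP-1 site TGANTCA was in none of the 10 start sites of these genes, against 6.75% of all promoters. The SMAD-binding element CAGAC was in 8 of the 10 start sites (42.2% of all promoters), the palindromic SMAD box GTCTAGAC in 0 (0.167%) and the CRE half-site TGACG in 2 (17.8%), each searched on both strands. A second annotated start of Tgfbr1, at chr4:47385966-47386215, has a GC content of 52.8% and none of the marked motifs. These matches are a description of letters and were not tested as binding sites.

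After 4 h of C5a, 7 of the 10 transcripts were higher in each of the 3 mice, namely all 3 ligands, Tgfbr1 and the 3 binding proteins. The other 3, Tgfbr2, Tgfbr3 and Eng, were lower in each mouse. Over all 35556 probesets, 18.3% were higher and 17.7% lower in 3 of 3 mice. None of the 10 passed limma at an adjusted p under 0.05, fitted with the mouse as a block and with the Benjamini-Hochberg adjustment taken across the whole array. The smallest adjusted p among them was 0.106. Of all probesets, 0% were called higher and 0.0112% lower at that threshold. The 4 probesets called were those of Fos, Zfp36, Ier2 and Btg2, immediate early genes named here after their values were seen.

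The study's own thresholds were a fold change of 1.5 or more together with an unadjusted p under 0.05. In the limma fit with the mouse as a block, 4 of the 10 passed these as higher, Tgfb1, Tgfb2, Tgfbr1 and Ltbp2, and 0 as lower. Of all probesets, 1.71% passed higher and 1.57% lower. Without the fold threshold, 5 of the 10 were higher and 2 lower, against 7.61% and 8.58% of all probesets. The median log2 fold change of the 10 was 0.31, against 0.01 over all probesets. Tgfb1, Tgfb2 and Ltbp2 stood just past the fold threshold, with fold changes of 1.54, 1.51 and 1.51. Without the block Tgfbr1 alone of the 10 passed, and 1.47% of all probesets were then higher and 1.12% lower. Tgfbr1 was also the only one of the 10 that passed when mouse 2 was left out.

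**Figure D1:**
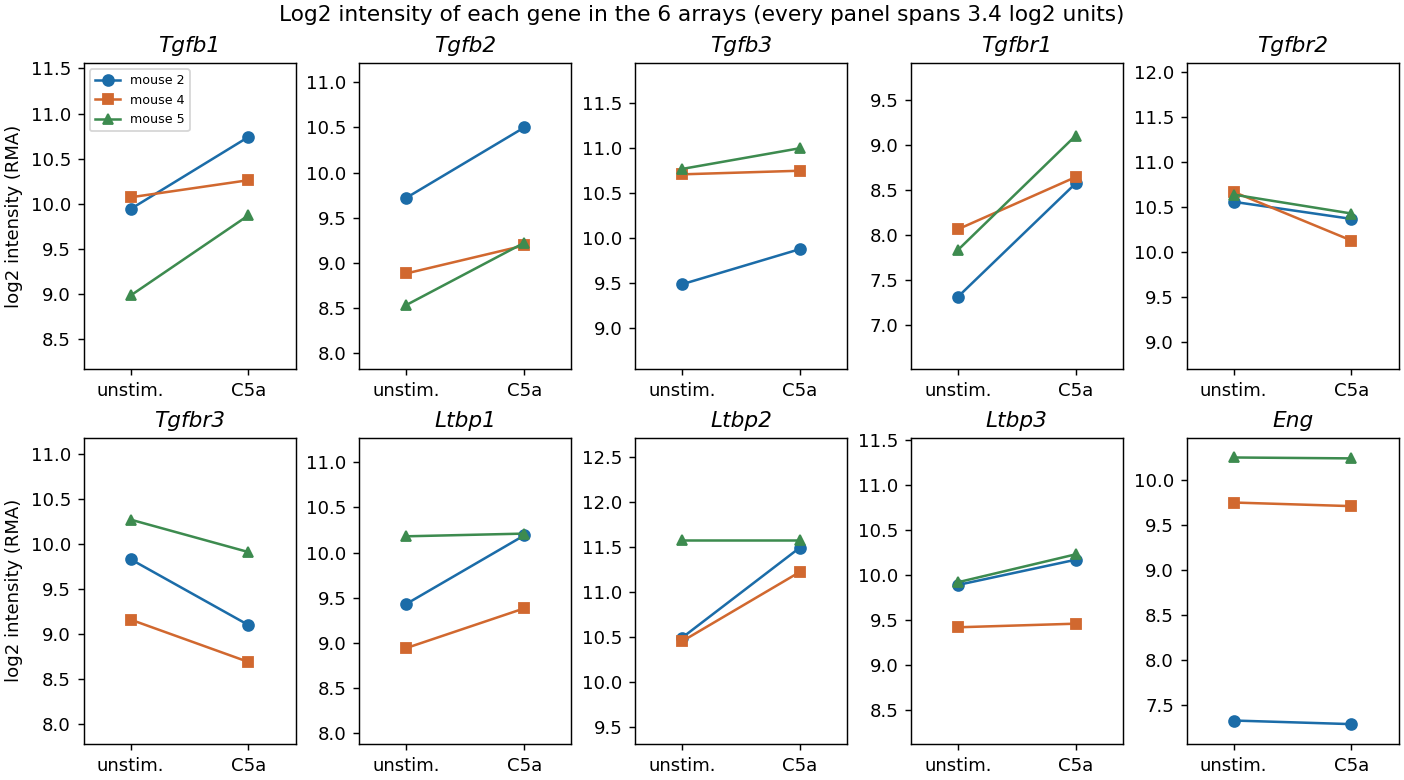
Log2 intensity (RMA) of the 10 genes in unstimulated and C5a-stimulated osteoblasts, with a line joining the 2 cultures of mouse 2 (circles), mouse 4 (squares) and mouse 5 (triangles), and every panel spanning the same number of log2 units. The lines of Tgfbr1 run upward in all 3 mice, from 7.31, 8.06 and 7.83 to 8.57, 8.64 and 9.10, whereas those of Eng are flat and far apart.

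Among the ligands, Tgfb1 encodes the most abundant TGF-β of bone matrix. Its probeset (10551185) had 9.94, 10.07 and 8.98 in the unstimulated cultures of mice 2, 4 and 5 and 10.74, 10.26 and 9.87 with C5a. The groups overlapped, since the C5a array of mouse 5 lay below both unstimulated arrays of mice 2 and 4, but each mouse was higher with C5a, by 0.80, 0.19 and 0.89. The log2 fold change was 0.63 (standard error 0.16, 95% interval 0.22 to 1.04, adjusted p = 0.168 from limma), and without the block the standard error was 0.35 (adjusted p = 0.639).

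Tgfb2, which encodes the second ligand and needs betaglycan for strong binding to the signalling receptors, had 9.72, 8.88 and 8.53 in unstimulated cells of mice 2, 4 and 5. With C5a its probeset (10360920) had 10.50, 9.19 and 9.22. Mouse 2 was the highest in both groups, and the changes within mice were 0.78, 0.31 and 0.69, a log2 fold change of 0.59 (standard error 0.11, 95% interval 0.30 to 0.89, adjusted p = 0.124 from limma). Tgfb3, the third ligand (10401673), had 9.49, 10.71 and 10.77 without and 9.88, 10.75 and 11.00 with C5a. For this ligand mouse 2 was the lowest, and the difference with C5a was small in each mouse, with a log2 fold change of 0.22 (standard error 0.09, 95% interval -0.02 to 0.46, adjusted p = 0.358 from limma). It was 0.135 without mouse 2. In all 3 ligands mouse 4 had the smallest difference.

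The C5a difference of Tgfb2 exceeded that of Tgfb3 by 0.40, 0.27 and 0.46 in mice 2, 4 and 5, a mean of 0.38 ± 0.10 (SD, n = 3). That of Tgfb1 exceeded it by 0.42, 0.15 and 0.66. Both differences had the same sign in 3 of 3 mice, where a two-sided exact permutation test by sign flips over mice gives p = 0.25, the smallest that 3 mice allow (adjusted p = 0.312 over the 5 pairs of genes compared in this way).

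Tgfbr1 encodes the type I receptor kinase and had the largest difference of the 10. Its probeset (10504817) had 7.31, 8.06 and 7.83 in the unstimulated cultures of mice 2, 4 and 5 and 8.57, 8.64 and 9.10 with C5a. All 3 C5a arrays lay above all 3 unstimulated arrays, which held for 7.89% of all probesets. The level went from 7.73 ± 0.39 to 8.77 ± 0.29 (SD, n = 3 each), and the log2 fold change of 1.03 (standard error 0.16, 95% interval 0.61 to 1.46) is a fold change of 2.05. It did not pass over all probesets (adjusted p = 0.106 from limma). When the fit held only the 21789 probesets that name 1 gene, 795 probesets passed and Tgfbr1 was among them (adjusted p = 0.038 from limma), whereas the other 9 had adjusted p-values from 0.0513 to 0.87.

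Tgfbr2 encodes the type II receptor, the kinase that binds the ligand first, and its transcript was lower with C5a. The probeset (10597518) had 10.56, 10.67 and 10.64 in unstimulated cells of mice 2, 4 and 5 and 10.37, 10.13 and 10.43 with C5a. The groups did not overlap (all C5a arrays below all unstimulated arrays in 7.29% of all probesets), since the unstimulated arrays stood within a narrow range, 10.62 ± 0.06 (SD, n = 3). The log2 fold change was -0.31 (standard error 0.10, 95% interval -0.57 to -0.06, adjusted p = 0.227 from limma). It was -0.20 without mouse 4, which had the largest difference. Tgfbr2 was thus lower while Tgfbr1 was higher on the same arrays. The change of Tgfbr1 exceeded that of Tgfbr2 by 1.44, 1.11 and 1.49 in mice 2, 4 and 5, a mean of 1.34 ± 0.21 (SD, n = 3, two-sided exact permutation test by sign flips, p = 0.25, adjusted p = 0.312).

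Tgfbr3, betaglycan, was lower as well. Its probeset (10532085) had 9.83, 9.16 and 10.27 without and 9.10, 8.69 and 9.91 with C5a in mice 2, 4 and 5. The groups overlapped because the mice differed, yet each mouse was lower with C5a, by -0.73, -0.47 and -0.36, giving a log2 fold change of -0.52 (standard error 0.10, 95% interval -0.77 to -0.26, adjusted p = 0.121 from limma). The change of Tgfbr1 exceeded that of Tgfbr3 by a mean of 1.55 ± 0.48 (SD, n = 3), in the same direction in 3 of 3 mice.

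Eng, endoglin, a co-receptor best known from endothelium, had 7.33, 9.75 and 10.25 in unstimulated cells of mice 2, 4 and 5 and 7.29, 9.71 and 10.24 with C5a (probeset 10471486). The 2 cultures of a mouse were nearly identical, whereas mouse 2 lay far below the other two in both. The log2 fold change was -0.03 (standard error 0.07, 95% interval -0.20 to 0.14, adjusted p = 0.907 from limma), so that the interval holds no change beyond 0.20 in size. The other 9 endothelial markers measured lay between 4.48 and 6.54 on the 6 arrays. Between the highest and the lowest mouse the means of both cultures differed by 0.07 to 0.24 in these 9, against 2.93 in Eng. These 9 lay near or below the array medians of 5.89 to 5.93, where a low signal leaves little room for a difference between mice. The source of the spread in Eng was not tested.

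**Figure D2:**
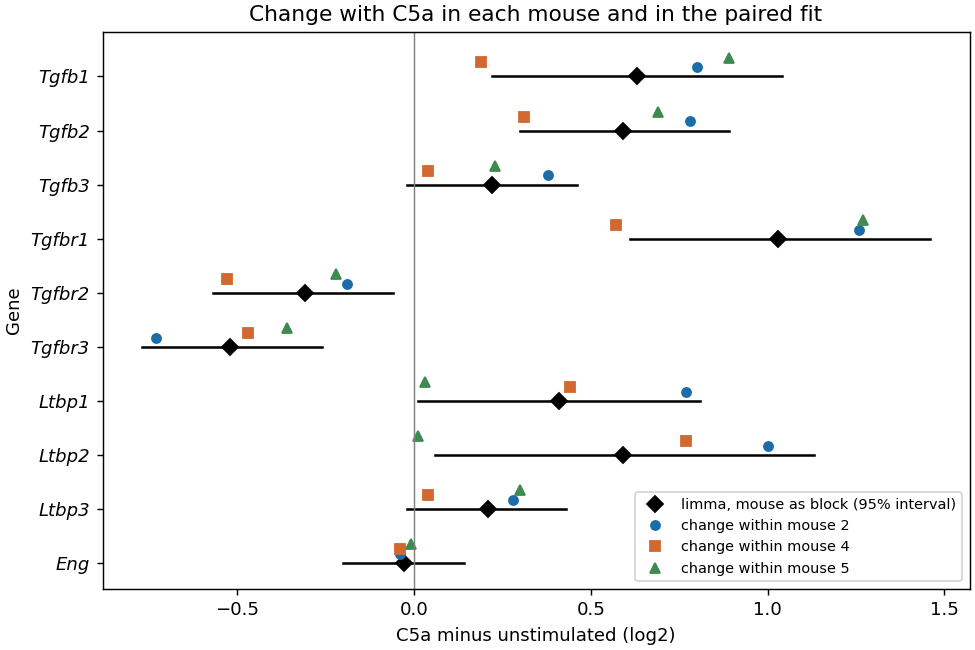
Change of each gene with C5a (log2, C5a minus unstimulated), with circles, squares and triangles for the difference within mice 2, 4 and 5, and diamonds and lines for the limma estimate with the mouse as a block and its 95% interval. The intervals of Tgfb3, Ltbp3 and Eng reach across 0, and Tgfbr1 lies farthest to the right at 1.03.

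The differences of the latent TGF-β binding proteins were less even between mice, and those of Ltbp1 and Ltbp2 were found in mice 2 and 4 with almost none in mouse 5. Ltbp2, a microfibril-associated member of the family that is not known to bind latent TGF-β covalently, had 10.49, 10.45 and 11.57 in unstimulated cells of mice 2, 4 and 5 and 11.49, 11.22 and 11.57 with C5a (probeset 10401527). Mouse 5 had the highest level without stimulation and a change of 0.01, against 1.0 and 0.77 in mice 2 and 4. The log2 fold change was 0.59 (standard error 0.21, 95% interval 0.06 to 1.13, adjusted p = 0.265 from limma). It was 0.39 without mouse 2 and 0.89 without mouse 5.

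Ltbp1, which tethers latent TGF-β to fibronectin and fibrillin in the matrix, followed the same order. Its probeset (10446928) had 9.43, 8.94 and 10.18 without and 10.19, 9.38 and 10.21 with C5a, changes of 0.77, 0.44 and 0.03. The log2 fold change was 0.41 (standard error 0.15, 95% interval 0.01 to 0.81, adjusted p = 0.297 from limma), or 0.23 without mouse 2. Ltbp3, a further member that binds latent TGF-β and is known to be needed for normal bone turnover, had 9.89, 9.42 and 9.92 without and 10.17, 9.46 and 10.23 with C5a (probeset 10460666). Here mouse 4 differed least, by 0.04, and the log2 fold change was 0.21 (standard error 0.09, 95% interval -0.02 to 0.43, adjusted p = 0.351 from limma). The changes of Ltbp2 and Ltbp3 differed by 0.73, 0.73 and -0.30 in mice 2, 4 and 5, so that their order was not the same in all mice (two-sided exact permutation test by sign flips, p = 0.50, adjusted p = 0.50).

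The spread between mice was set beside the C5a difference of each gene. For 8 of the 10, the mean of both cultures varied between the highest and the lowest mouse by more than the C5a difference, the exceptions being Tgfbr1 (0.53 against 1.03) and Tgfbr2 (0.14 against 0.31). A range over the mice and a difference of group means are unlike measures. The share of all probesets for which this holds was not computed, so that the count is not read as a trait of these genes. Eng had the widest range, 2.93, followed by Tgfb2 with 1.24 and Tgfb3 with 1.20. The order of the mice was not common to the genes. Mouse 5 was lowest in Tgfb1 and Tgfb2 and highest in all the other genes of the 10. Mouse 2 was highest in Tgfb1 and Tgfb2 and lowest in Tgfb3, Tgfbr1 and Eng.

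**Figure D3:**
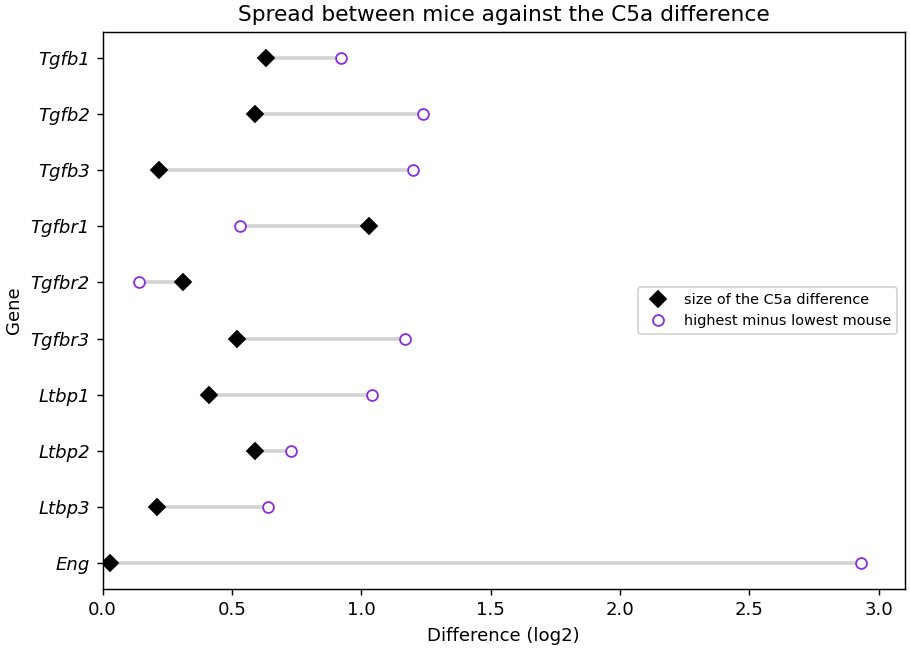
For each gene, the size of the log2 fold change with C5a (diamonds) and the difference between the highest and the lowest mouse in the mean of both cultures (open circles), on a log2 scale. The diamond lies to the right of the circle for Tgfbr1 and Tgfbr2, and the circle of Eng lies at 2.93.

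The cultures also differed in transcripts that mark other cell types. The 18 markers of macrophages and osteoclasts had a mean level of 8.77 to 9.42 on the arrays of mice 2 and 4 and of 6.31 and 6.41 on those of mouse 5. This gap was not even over the list. In the mean of both cultures of mice 2, 4 and 5, the macrophage marker Cd68 had 10.95, 11.40 and 6.64. The osteoclast markers Ctsk and Acp5 had 10.73, 10.91 and 10.37, and 9.13, 8.48 and 8.10. Ocstamp and Calcr, also osteoclast markers, stood at 5.82 to 5.95 and at 4.90 to 5.02. In the mean of both cultures, mouse 5 was lowest in Tgfb1 and Tgfb2 and highest in the other TGF-β genes described here. In such bulk samples fewer cells of a type and less RNA per cell cannot be told apart. Col1a1 stood at 13.32 to 13.79 on all arrays, and Ibsp, a marker of mature osteoblasts, at 7.02 to 12.88 with mouse 5 the lowest. In the mean of both cultures mouse 5 was also the lowest in Alpl, Dmp1 and Phex. Other osteoblast and osteocyte markers did not share this order. Sp7 had 6.38, 8.49 and 6.53 in mice 2, 4 and 5, and mouse 5 was the highest in Sost and Mepe, where the mice ranged over 0.35 and 0.15. The C5a receptor transcript C5ar1 had 9.11, 9.41 and 5.17 in unstimulated cells of mice 2, 4 and 5 and 8.84, 8.77 and 6.09 with C5a. With C5a, Tgfbr1, Tgfb1 and Tgfb2 differed in mouse 5 by 1.27, 0.89 and 0.69, and Ltbp1 and Ltbp2 by 0.03 and 0.01, against 0.77 and 0.44 for Ltbp1 and 1.0 and 0.77 for Ltbp2 in mice 2 and 4. Between the groups, where 2.22% of genes passed the study's thresholds as higher and 2.21% as lower with 1 probeset per gene, 1 of the 18 macrophage and osteoclast markers passed as lower, and 3 of 9 smooth muscle and pericyte markers passed as higher, with mean levels of that list of 7.18 to 8.13 without and 7.90 to 8.17 with C5a. Of 7 adipocyte markers 1 passed as lower, and of 10 osteoblast and osteocyte markers and 10 endothelial markers none did. Without the block 0 of the macrophage and osteoclast markers and 0 of the adipocyte markers passed, and 3 of the smooth muscle and pericyte markers were again higher. The part of these cells in the differences of the TGF-β genes was not tested.

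Within mice 2, 4 and 5, the median size of the change of the 10 genes was 0.749, 0.376 and 0.268. Over all 19938 genes it was 0.148, 0.11 and 0.127. The 10 genes lay at the 68th percentile of all probesets or above on every array, whereas the 19938 genes were taken at all levels. Genes matched by level were not compared. Mouse 2 had the largest change of the 3 mice in 6 of the 10 genes and mouse 4 the smallest in 5.

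The other parts of the pathway were described from gene lists, counted at the study's thresholds beside the same 2.22% and 2.21% of genes. No gene of these lists passed after adjustment over all probesets. Among 27 genes of latency, matrix storage and activation 5 were higher and 0 lower, and the list had a median log2 fold change of 0.06. Lrrc32, which anchors latent TGF-β on the cell surface, had 10.08, 9.48 and 10.72 without and 11.36, 11.07 and 12.43 with C5a, so that the groups did not overlap (log2 fold change 1.53, standard error 0.11, adjusted p = 0.0704 from limma). Itgb3, a subunit of an integrin that binds latent TGF-β, had 6.53, 8.21 and 7.29 without and 7.41, 9.32 and 8.55 with C5a (log2 fold change 1.08, standard error 0.10, adjusted p = 0.0796). The log2 fold changes of Tgm2, a transglutaminase that crosslinks binding proteins to the matrix, and Mmp13, a collagenase, were 0.70 and -0.56.

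Of 11 other receptors and co-receptors 0 were higher and 1 lower, with a median of -0.15. Cd109, a co-receptor that dampens TGF-β signalling, and Acvr1, a type I receptor of the activin and BMP branch, differed by 0.57 and 0.55 on the log2 scale, upward in 3 of 3 mice (limma, adjusted p = 0.0984 and 0.11), and Nrp1, a semaphorin receptor that also binds TGF-β, and Acvr2a, a type II activin receptor, had -0.31 and -0.61. Of 15 SMADs and other transducers 0 were higher and 1 lower, with a median of 0.08. The latter was Dab2, an adaptor that links receptors to SMADs, with a log2 fold change of -0.60 (adjusted p = 0.154 from limma). Hgs, an endosomal adaptor, Foxh1, a DNA-binding partner of SMADs, and Tab2, an adaptor of the kinase TAK1, had 0.32, 0.20 and -0.35.

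The feedback inhibitors and the targets held more genes past the thresholds. Of 17 genes listed as feedback inhibitors and corepressors, 8 were higher and 1 lower, with a median of 0.27. The list also holds the deubiquitinases Usp4, Usp11 and Usp15, which are not feedback inhibitors. The lower gene was Usp11 (log2 fold change -0.61). The log2 fold changes of Smurf2 and Smurf1, ubiquitin ligases that mark the receptor complex for degradation, were 0.87 and 0.66 (adjusted p = 0.0772 and 0.124 from limma). Smad7, the inhibitory SMAD that brings these ligases to Tgfbr1, had 7.03, 7.83 and 7.84 without and 8.33, 8.44 and 9.08 with C5a. Its changes were 1.30, 0.61 and 1.24, and those of Tgfbr1 were 1.26, 0.57 and 1.27. This order of the mice is not particular to the pair. Mouse 4 also had the smallest change in Smurf1 (0.83, 0.32 and 0.83), though not in Smurf2 (0.76, 0.95 and 0.92). Pmepa1, which keeps SMADs from the receptor, had a log2 fold change of 2.02. Of 28 target genes, 10 were higher and 3 lower, with a median of 0.28. The lower ones were Junb, Cdkn2b (log2 fold change -1.15) and Nox4 (-0.62). No expected direction was set for these targets, so that the counts are not read as a measure of TGF-β activity. This list shares Smad7, Skil and Pmepa1 with the inhibitor list. Loxl2 was listed but not found under its own symbol, and Loxl3, a different gene reached as a synonym, was counted in its place. Loxl3 had a log2 fold change of 0.34 and did not pass the fold threshold. Snai1, a transcriptional repressor, and Tgfbi, a matrix protein, had log2 fold changes of 1.49 and 2.28 and the AP-1 subunit Junb one of -2.01 (adjusted p = 0.0704, 0.0796 and 0.0704 from limma). Without the block the counts were 3 higher in the latency list, and 0 lower among the other receptors and among the transducers. The inhibitor list then had 8 higher and 1 lower, and the targets 8 higher and 2 lower. Several of these genes are named in the study from the same arrays, so that the counts of these lists are not independent of it.

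**Figure D4:**
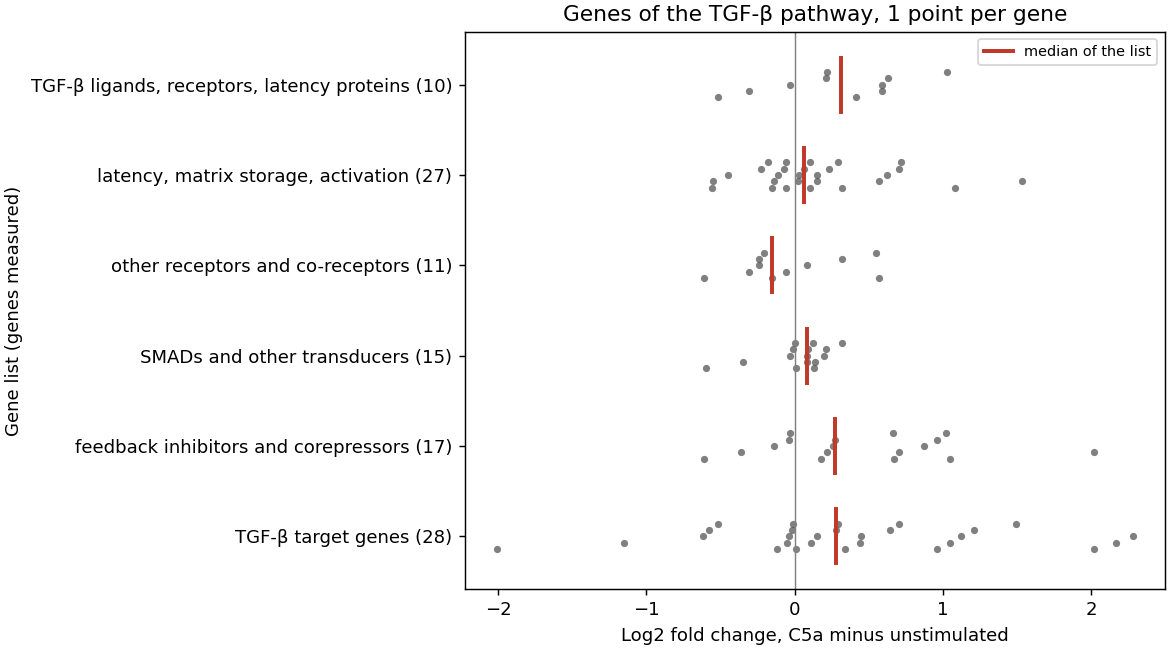
Log2 fold change with C5a (C5a minus unstimulated, mouse as block) of each measured gene of 6 lists of the TGF-β pathway, 1 point per gene, with a red bar at the median of the list. The medians lie at 0.31 for the 10 genes described here and at 0.06, -0.15, 0.08, 0.27 and 0.28 for the lists below them.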

How the data were processed

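Total RNA of 6 osteoblast cultures was hybridised to Affymetrix Mouse Gene 1.0 ST arrays. The authors used Expression Console, BRB-ArrayTools and the robust multiarray average (RMA), and the deposited values are log2 intensities per probeset. The program versions are not given in the sources used here. RMA was the only background step, and no detection calls were used. Whether other arrays were normalized with these 6 is not given in the sources used here.

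All 35556 probesets were fitted with limma (version 3.58.1, R 4.3.3) by lmFit and eBayes, with the mouse as a block and Benjamini-Hochberg adjustment over all of them. Cultures were paired by mouse number, since the series describes each cell pool of a mouse as split between the groups. Deviations from the group means correlated at 0.495 to 0.684 within mice and at -0.446 to -0.0353 between mice. Such deviations cancel out within a group, so that positive values within mice bring negative ones between mice on average by construction. Probesets naming 1 gene (21789) were used for names. The methods name a t-test with p under 0.05 and a fold change written as at most 1.5, read here as at least 1.5. The pathway lists name up to 4 genes each by smallest p, and further genes where a count is explained. The 10 genes, the lists and the tests were chosen with earlier results of these data known, the pairs of genes set against each other after their values were seen, and no set test was run. Both the fit and its adjustment were tested on simulated data. The number of arrays limits the precision.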

Additional observations from a re-analysis of the deposited data

How the results depend on the processing

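Each of the 10 log2 fold changes was recomputed under 12 alternatives, and all 120 values kept their direction. For most alternatives this was fixed in advance. A change of test, filter or probeset choice leaves the log2 fold change as it was, each gene having 1 probeset. Leaving out a mouse cannot reverse a change that has the same sign in all 3 mice. Only median centring and quantile normalization could have reversed a direction. Of the 120 values, 119 also stayed on the same side of the adjusted threshold, and 1 did not, that of Tgfbr1 among probesets naming 1 gene (adjusted p = 0.038, with a range of 0.038 to 0.534 over its alternatives). In that fit 318 probesets were higher and 477 lower after adjustment, against 0 and 4 among all probesets, and 1 of the 10 genes was called. With only probesets above the 40th percentile of mean level, 152 were higher and 221 lower. The prior degrees of freedom that limma estimated were 3.49 and 3.51 in these fits and 2.77 over all probesets. Without the replicate block 1 probeset was higher and 4 were lower after adjustment. At the study's thresholds that fit called 1 of the 10 genes higher in place of 4, as did the methods' t-test and the paired t-test, and the cause was not tested. The methods' t-test called 374 probesets higher and 291 lower at these thresholds and the paired t-test 226 and 291, against 608 and 558, and both called 0 after adjustment. When both arrays of a mouse were left out, between 0 and 3 probesets were lower after adjustment, with 0 without mouse 2 or mouse 5. At the study's thresholds between 409 and 1009 were then higher, with 1009 without mouse 4, and between 476 and 745 lower. Of the 10 genes between 1 and 3 were higher, with 1 without mouse 2, and between 0 and 1 lower, the latter Tgfbr3 without mouse 5. With the mouse as a block, leaving out 1 array removes the contrast of its pair, so that single arrays were not left out. Median centring and quantile normalization changed no call of the 10 genes.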
